A study of Mus musculus with 7 samples.

Results

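The monocytes and macrophages compared here are 979 cell barcodes from 2 libraries of mouse heart leukocytes, 620 from day 5 and 359 from day 7 after myocardial infarction. They were taken from 2824 barcodes in those libraries and 22630 in the whole series. A barcode counted as a member when it held at least 200 detected genes, at most 10% mitochondrial UMIs (unique molecular identifiers, each counted as 1 captured transcript) and at least 2 UMIs in the sum of Csf1r, Adgre1 and Cd68, with no UMI of Csf3r, fewer than 3 of Cd79a and none of Cd3d, Cd3e or Cd3g. The genes of this rule are therefore no finding. Just inside the marker threshold, at 2 UMIs, lay 19 barcodes on day 5 and 26 on day 7, and just outside it, at 1 UMI, lay 26 and 41.

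The mice were male C57BL6/J animals whose labels name no transgene or mutated allele, and their age is not given in the sources used here. All had a permanent ligation of the left coronary artery, and 5 hearts were pooled for day 5 and 3 for day 7. An antibody to CD45.2 injected before death marked leukocytes inside vessels, and viable CD45+ cells without that mark were sorted from the infarct, its border and neighbouring muscle after a step that lowered neutrophil numbers, then sequenced with 10x Genomics 3' chemistry version 2. Levels at steady state, day 1 and day 3 are from 3 further CD45+ libraries, in which the same gate took 470, 183 and 483 barcodes. The steady-state library is named so by its time point label, while its condition label reads as infarction like that of the others. Each day had 1 library of pooled mice, so there is no replicate error and no p-value: ratios carry exact 95% intervals for the counting of UMIs alone, and mouse, sort and library cannot be told apart from the day.

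As background, the healthy heart holds resident macrophages that maintain themselves locally and carry receptors such as Lyve1, Folr2, Timd4 and Cd163. After an infarct most of them are lost from the damaged wall, and blood monocytes marked by Ly6c2 and Ccr2 enter, clear dead muscle and mature into macrophages. Maturing macrophages may load lipid and lysosomal proteins (Trem2, Gpnmb, Spp1) or present antigen on MHC class II molecules, and they secrete cytokines and growth factors that act on scar-forming cells.

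Monocyte/macrophage markers outside the gate stood higher in members than in day 7 B cells and T cells. The sum of 9 such markers (among them Fcgr1, Lyz2, C1qa, Ms4a7, Cd14 and Itgam) was 32890 CPM on day 5 and 33210 CPM on day 7. CPM are the members' summed UMI counts set to a common library total, scaled by TMM, the trimmed mean of M values. In day 7 B cells and T cells, scaled by total UMIs alone, the sum was 3531 and 3086 CPM. All 9 markers were detected in members on both days, and Lyz2 alone had 17560 and 16470 CPM. Members were 620 of the 948 barcodes that passed the quality limits on day 5 (65.4%) and 359 of 1795 on day 7. They held 5886284 and 3738289 UMIs, with medians of 8236.5 and 9713 per cell. The day 7 library also held 576 B cell barcodes against 19 on day 5, and 1 or 2 UMIs of Cd79a, a B cell receptor chain, were seen in 202 of 359 members on day 7 (56.3%) against 17 of 620 (2.74%). Summed B cell markers stood at 20.1 CPM on day 5 and 185 CPM on day 7, which was 3.99% of their level in the day 7 B cells, and in day 7 T cells they stood at 334 CPM. Summed dendritic cell markers went from 70.3 to 215.5 CPM, NK cell markers from 45.6 to 147 CPM, T cell markers from 30.8 to 48.3 CPM and red cell markers from 6136 to 2899 CPM. Their part in the results below was not tested unless a value is given beside one. The libraries shared 2 barcode sequences, of which 1 was a member on both days.

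Of 6308 genes with a mean of at least 10 CPM over both days, 143 were at least 2-fold higher on day 7 (2.27% of genes) and 83 at least 2-fold lower (1.32%). These shares are the background for every count of list genes past 2-fold below. Most genes hardly differed: 5358 genes, 84.9%, lay within 1.5-fold, and the median log2 ratio was -0.03. Scaled by total UMIs alone the split was 119 higher and 111 lower, with a median of -0.10. The counting interval lay wholly past 2-fold for 81 genes higher on day 7 (1.28%) and 20 lower (0.317%). Genes named below had a mean of at least 50 CPM or belong to a list, and the plot of log2 ratio against level shows where the 12 highest and 12 lowest by counting bound sit.

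**Figure D1:**
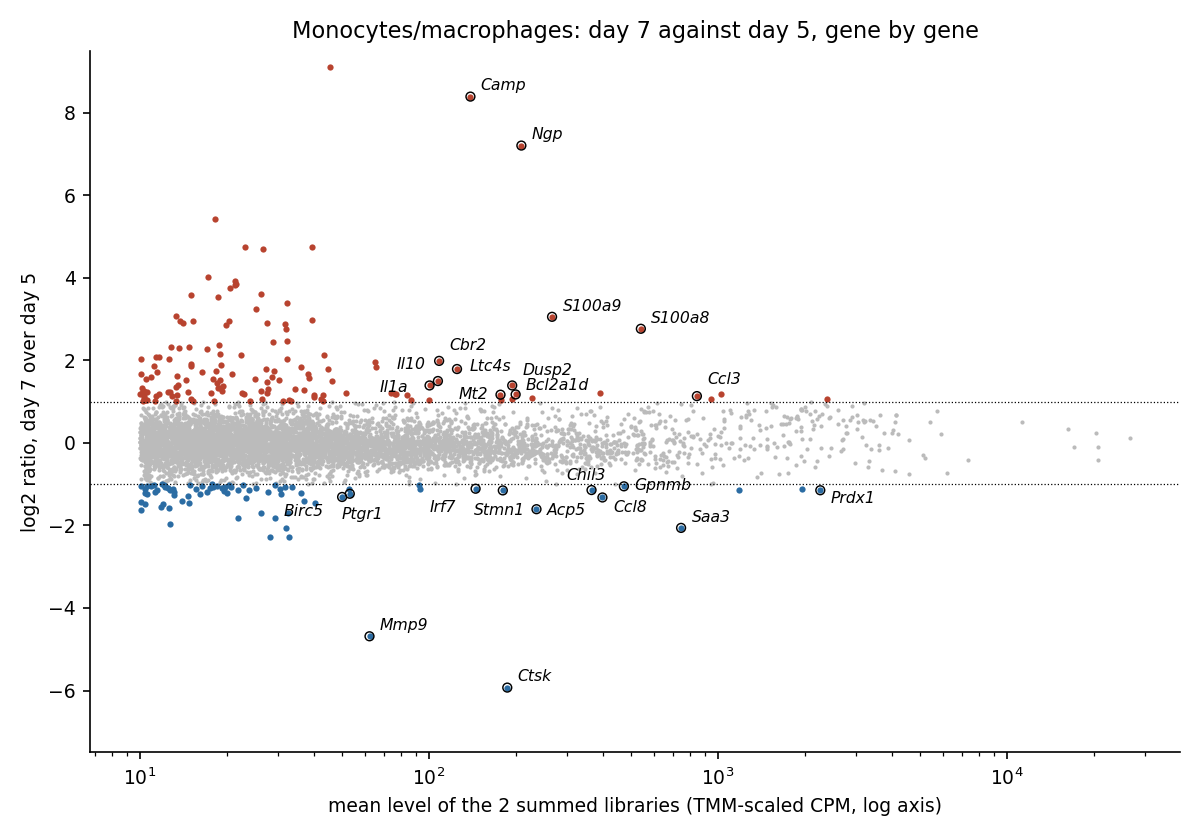
Log2 ratio of day 7 over day 5 for each gene (vertical axis) against its mean level over both days in TMM-scaled CPM (horizontal log axis); red and blue points are at least 2-fold higher and lower on day 7, dotted lines mark 2-fold, and circles mark the 24 named genes. Ltf, with no UMI on day 5, has no ratio and is not drawn, and the unlabelled point at the top is Jchain. Most points lie between the dotted lines, while Camp, Ngp, Ctsk and Mmp9 stand far outside them.

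Genes of resident macrophages were higher on day 7. Lyve1, a hyaluronan receptor, had 39 UMIs in 7 of 620 members on day 5 and 178 UMIs in 51 of 359 members on day 7, which is 6.46 against 48.8 CPM and a log2 ratio of 2.92 (interval 2.41 to 3.46). Vsig4, a complement receptor, stood at 4.81 and 45.5 CPM (log2 ratio 3.24, interval 2.67 to 3.87), although 31.3% of its day 7 UMIs lay in 1 barcode. Cd163, the receptor for haemoglobin bound to haptoglobin, went from 4.81 to 34.8 CPM (log2 ratio 2.86, interval 2.27 to 3.49). Each of these was a rare transcript on day 5 that many more members held on day 7. Any UMI of Lyve1, Folr2 or Timd4, called a resident marker below, was held by 194 members on day 5 and 162 on day 7. Most of those members therefore held Folr2 or Timd4 without Lyve1.

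Cbr2, a carbonyl reductase (chromosome 11, 120729489 to 120732114 in GRCm38), had 43.8 CPM on day 5 and 173 CPM on day 7, 3.96-fold higher, and was found in 20.2% and 38.4% of members. Fcna, a ficolin that binds microbial sugars, had 16.1 and 70.7 CPM (log2 ratio 2.14), and Folr2, a folate receptor, 90.8 and 176 CPM (log2 ratio 0.96). Of 11 genes of the resident list that passed the filter 5 were at least 2-fold higher and 0 lower, against 2.27% and 1.32% of all genes. The list's median log2 ratio was 0.96 beside -0.03 over all genes. The remaining members of the list differed less: Mrc1, the mannose receptor, had 144 and 157 CPM, the growth factor Igf1 140 and 173 CPM, Gas6, a bridge to dying cells, 108 and 123 CPM, the transglutaminase F13a1 171 and 243 CPM, and Sepp1, a selenium transport protein, 1755 and 1393 CPM. At steady state the same gate gave 277 CPM of Lyve1 and 639 CPM of Cbr2, both above the day 7 levels. Without the members that held any UMI of Lyve1, Folr2 or Timd4 the list's median was -0.13 and the log2 ratios of Cbr2 and Cd163 were 0.50 and 1.19. Lyve1 and Folr2 are on the list and have no UMI left in that setting, so part of the fall is fixed by construction. With members holding Cd79a left out on both days the list's median was 0.59, and against the second day 5 sample described below it was 1.17.

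Genes for MHC class II antigen presentation were also higher on day 7. H2-Aa and H2-Ab1, the chains of the I-A molecule, had 2800 and 3182 CPM on day 5 and 4457 and 5093 CPM on day 7 (log2 ratios 0.67 and 0.68). H2-Eb1, a chain of the I-E molecule, went from 1547 to 3218 CPM (log2 ratio 1.06, interval 1.02 to 1.10) and Cd74, the invariant chain that escorts class II molecules, from 9276 to 13190 CPM (log2 ratio 0.51). All 9 genes of the list that passed the filter lay above 0, 4 of them at least 2-fold against 2.27% of all genes, with a median of 0.68. Against the day 5 cells of a second experiment, described below, the median was 2.66. The other 3 past 2-fold were H2-DMb2 (26.7 and 103 CPM), H2-Oa (13.4 and 45.0 CPM) and H2-Ob (6.13 and 31.5 CPM), subunits of molecules that regulate peptide loading. B cells of the day 7 library held 1113 CPM of H2-DMb2, 303 CPM of H2-Oa and 439 CPM of H2-Ob, and the T cells of that library, which in mice do not make class II molecules, held 89.9, 17.1 and 34.2 CPM.

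The class II level of single cells bears on this difference. In the sum of H2-Aa, H2-Ab1, H2-Eb1 and Cd74, the median member held 1776 CPM on day 5 and 4631 CPM on day 7, here scaled by each cell's total UMIs alone. The median T cell held 892 on day 5 (9 barcodes) and 3362 on day 7 (56 barcodes), so the level in cells that should lack these transcripts was also higher on day 7. The 10th percentile of members went from 530 to 2713 and the 75th from 19780 to 37840, so the lower members of day 7 lay in the range of that day's T cells, whose 10th and 90th percentiles were 2141 and 4623, and the upper members lay far above it. Summed over cells the 4 genes stood at 17220 and 25320 CPM in members and at 1002 and 4221 CPM in T cells. Among the 157 day 7 members with no Cd79a UMI the sum was 27960 CPM, and with Cd79a at 0 on both days the list's median log2 ratio was 0.75.

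Promoters of this list are shown because its genes lay on 1 side together. Of 10 listed genes 7 had a promoter entry in RefSeq (GRCm38.p6), and all 7 held, in at least 1 of their entries, the letters CCAAT on either strand in the 250 bases before the start, as did 37.5% of all 27025 genes with an entry; in class II promoters such a box is known to bind the factor NF-Y. The promoters of H2-Aa (chr17:34287824-34288073, minus strand) and H2-Eb1 (chr17:34305617-34305866, plus strand) follow, with each match in capitals.
H2-Aa: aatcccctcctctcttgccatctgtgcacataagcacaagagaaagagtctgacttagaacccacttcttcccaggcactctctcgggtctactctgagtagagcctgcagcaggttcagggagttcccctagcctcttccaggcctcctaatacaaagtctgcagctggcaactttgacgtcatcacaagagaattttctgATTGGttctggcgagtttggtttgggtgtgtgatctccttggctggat
H2-Eb1: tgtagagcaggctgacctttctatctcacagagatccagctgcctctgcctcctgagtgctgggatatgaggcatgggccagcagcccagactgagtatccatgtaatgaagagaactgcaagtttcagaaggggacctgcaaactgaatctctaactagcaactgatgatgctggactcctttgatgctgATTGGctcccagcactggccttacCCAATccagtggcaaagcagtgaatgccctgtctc
The match of H2-Aa begins 48 bases before the start, and those of H2-Eb1 begin 59 and 35 bases before it. A match is a description of the letters and shows no binding.

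**Figure D2:**
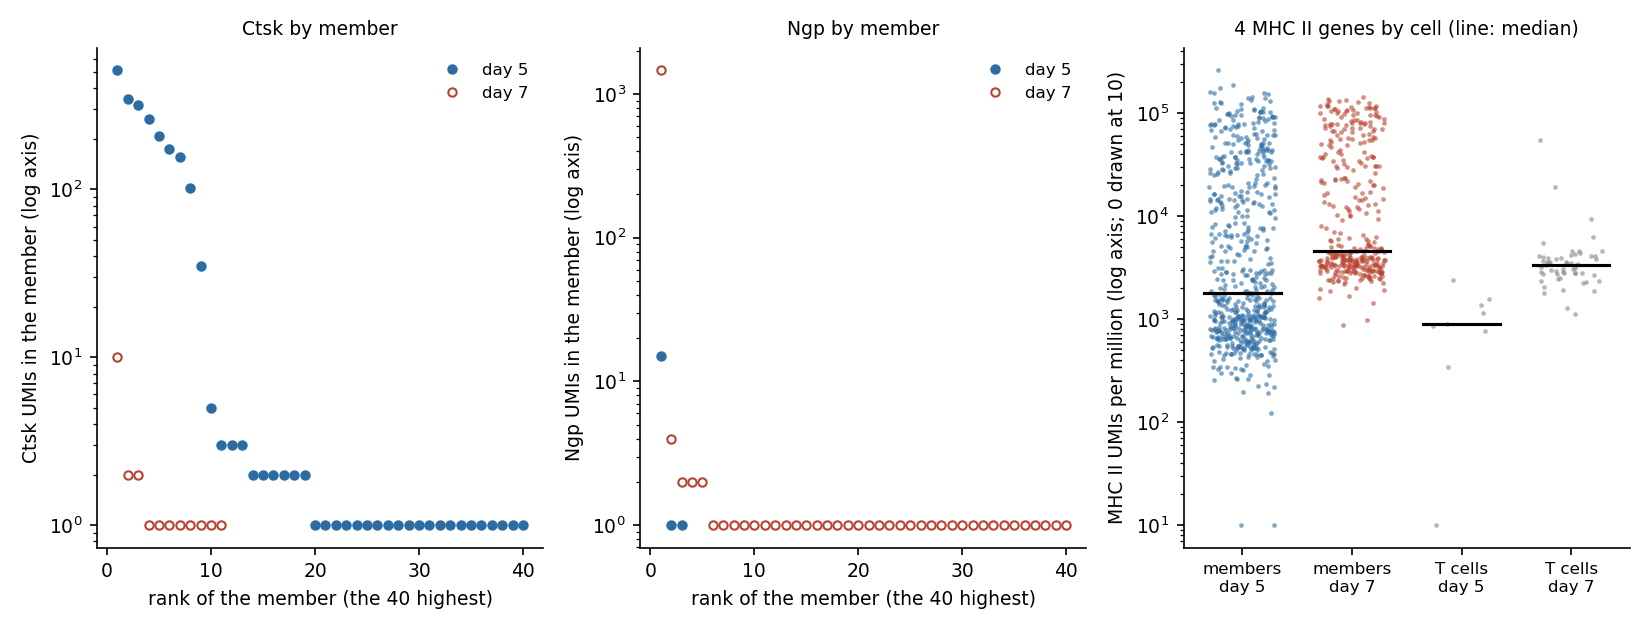
UMIs of Ctsk (left) and Ngp (middle) in the 40 members with the most on each day, against their rank, with UMIs on a log axis; the right panel gives the summed UMIs of H2-Aa, H2-Ab1, H2-Eb1 and Cd74 per cell, in CPM, in every member and T cell barcode, with the median as a line. In the left panel 9 day 5 members stand above the rest, in the middle panel 1 day 7 member does, and in the right panel the lower day 7 members lie level with the day 7 T cells.

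Cytokines and chemokines made by activated macrophages mostly stood higher on day 7. Il1a, an interleukin released as an alarm signal, had 55.5 and 146 CPM (log2 ratio 1.39, interval 1.19 to 1.59), and Il10, an anti-inflammatory cytokine, 56.2 and 159 CPM (log2 ratio 1.50, interval 1.30 to 1.70). Ccl3, a chemokine that attracts leukocytes, had 530 and 1162 CPM (log2 ratio 1.13) and Tnf 126 and 262 CPM (log2 ratio 1.06). Of 18 genes on the inflammatory list 3 were at least 2-fold higher, 1 was lower and 16 lay above 0, with a median of 0.55. Il1b and Ccl4 fell just short of 2-fold, at 2180 and 4242 CPM and at 1608 and 3100 CPM, and Cxcl2, a neutrophil attractant and the most abundant gene of the list, had 4470 and 6369 CPM. The exceptions were monocyte attractants: Ccl8 had 569.5 and 228 CPM and Ccl12 631 and 402 CPM, while Ccl2 and Ccl7 had log2 ratios of 0.11 and 0.35. With Cd79a at 0 the log2 ratio of Il10 was 0.82 and that of Ccl3 0.98, and without members holding a resident marker Il1a was at 0.82 and Ccl3 at 0.67, all below 2-fold.

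Several single genes went the same way. Ltc4s, the synthase of the lipid mediator leukotriene C4 (chromosome 11, 50236461 to 50238616), had 56.2 CPM on day 5 and 194 CPM on day 7 and was found in 18.9% and 43.2% of members. Dusp2, a phosphatase that switches off MAP kinases, had 107 and 281 CPM (log2 ratio 1.39), but B cells and T cells of the day 7 library held 313.5 and 231 CPM. Bcl2a1d, of the Bcl2 survival family, had 123 and 277 CPM (log2 ratio 1.17), and Mt2, a metallothionein that binds zinc, 109 and 245 CPM (log2 ratio 1.17). Bcl2a1d is a near-identical copy of other Bcl2a1 genes, so reads could be split among them. Ltc4s and Dusp2 kept a difference of over 2-fold under every alternative that was run. Bcl2a1d fell to 0.93 with each member weighted equally and to 0.89 with members thinned to 2000 UMIs, and Mt2 to 0.98 without members holding a resident marker.

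Among growth factors, Hbegf, a ligand of the EGF receptor, had 12.3 and 42.5 CPM (log2 ratio 1.79, interval 1.38 to 2.21) and Pdgfa, a fibroblast mitogen, 25.2 and 54.8 CPM (log2 ratio 1.12). Without members holding a resident marker Hbegf was at 0.85. Tgfb1 had 215 and 249 CPM, Vegfa 48.1 and 63.9 CPM, and the matrix proteins Thbs1 and Tgfbi 573 and 613 CPM and 799 and 649.5 CPM. Arg1, the arginase of early wound macrophages, had 367 and 184.5 CPM (log2 ratio -0.99). Of 19 genes on this list 2 were at least 2-fold higher and 2 lower (Mmp9 and Mmp8), with a median of 0.20.

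Among genes with a mean of at least 50 CPM the largest ratios came from neutrophil marker genes, and 1 cell carried most of their day 7 UMIs. Camp, the precursor of an antimicrobial peptide, had 5 UMIs on day 5 and 1013 on day 7, Ngp 17 and 1514, S100a8 838 and 3442, and S100a9 346 and 1737. A single day 7 barcode of 20510 UMIs held 956 UMIs of Camp (94.4%), 1459 of Ngp (96.4%), 2580 of S100a8 and 1347 of S100a9 (77.5%). It had passed the gate with 1 UMI of Csf1r, 1 of Adgre1 and 3 of Cd68, and none of Csf3r. The log2 ratios with and without it were 8.39 and 4.25 for Camp, 7.20 and 2.43 for Ngp, 2.76 and 0.78 for S100a8 and 3.05 and 0.91 for S100a9. Without it S100a8 and S100a9 were no longer at 2-fold, and Camp and Ngp remained past it on 57 and 55 UMIs of day 7, or 15.3 and 14.8 CPM scaled by total UMIs. T cells of that library held 30.0 CPM of Camp and 38.5 CPM of Ngp, and B cells 13.2 and 25.2 CPM.

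On the side lower on day 7, Ctsk led, with 368 CPM on day 5 and 6.03 CPM on day 7, 60.9-fold lower. Ctsk (chromosome 3, 95499256 to 95509362) encodes cathepsin K, a collagen-cutting protease. Mmp9, gelatinase B (chromosome 2, 164940780 to 164955850), had 120 and 4.66 CPM, 25.8-fold lower, and Acp5, tartrate-resistant acid phosphatase, 355 and 117 CPM, 3.04-fold lower. Here too a few cells carried much of the difference. Among 620 day 5 members 9 had at least 10 Ctsk UMIs (1.45%, interval 0.666% to 2.74%). They held 95.2% of the day 5 Ctsk UMIs, from 35 to 511 in each, while no other day 5 member had more than 5. Day 7 had 1 such member of 359 (0.279%, interval 0.00705% to 1.54%), with 10 UMIs, so the intervals of the 2 shares overlap. Without these members the log2 ratio was -2.50 instead of -5.93 for Ctsk, -2.54 instead of -4.69 for Mmp9, and -0.33 instead of -1.61 for Acp5. Ctsk and Mmp9 thus stayed past 2-fold without them, and Acp5 did not.

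Cells of this kind were also found in a separate experiment. In a hashtagged pool of CD11b+ heart cells (3 mice for day 5, chemistry version 3) the same gate took 642 day 5 cells, and 11 of them (1.71%, interval 0.858% to 3.05%) held 93.5% of the Ctsk UMIs. In both experiments they had more transcripts than other members, with medians of 28774 against 8192 UMIs in the CD45+ library and 61415 against 23554 in the pool. Genes known from osteoclasts, the bone-resorbing macrophages, were higher in them: Atp6v0d2, a proton pump subunit, had 870 against 12.4 CPM (scaled by total UMIs) in the CD45+ library and 687 against 18.9 in the pool, and Dcstamp, a fusion protein, 109 against 2.13 and 46.0 against 4.57. The factor Nfatc1 stood at 166 against 15.8 and 391 against 27.2. In the CD45+ library Lyz2 stood at 1438 against 18780 CPM, C1qa at 256 against 2910 CPM and H2-Aa at 128 against 3000 CPM in them. The gate genes, which are no finding, stood at 1190 against 1175 CPM for Cd68, 301 against 434 CPM for Csf1r and 26.4 against 411 CPM for Adgre1. The threshold of 10 UMIs and these genes were chosen after the values were seen, and the cells are given no name here. Members with at least 10 Ctsk UMIs were also found on day 3, 1 of 483 in the CD45+ library and 3 of 528 in the pool. None were found among 470 steady-state and 183 day 1 members, which allows shares of up to 0.782% and 2.00% (exact interval).

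Saa3, an acute-phase protein (chromosome 7, 46711998 to 46715700), had 1203 CPM on day 5 and 288 CPM on day 7, 4.17-fold lower, and was found in 77.7% and 29.8% of members. Its level had been 45890 CPM on day 1 and 5741 CPM on day 3. A single member held 24.8% of its day 7 UMIs, and among members with Cd79a at 0 its log2 ratio was -4.67 instead of -2.06, and that of Ccl8 -2.08 instead of -1.32. Chil3, a chitinase-like protein of inflammatory monocytes, had 503 and 228 CPM (log2 ratio -1.14, interval -1.26 to -1.03) after 5108 CPM on day 1. Cfb, complement factor B, had 54.4 and 11.2 CPM (log2 ratio -2.27). Of 12 genes of infiltrating monocytes 1 (Chil3) was at least 2-fold lower and 0 higher, with a median of -0.38: Ly6c2 had 191 and 118 CPM, Ms4a4c 333 and 176 CPM, Plac8 734 and 480 CPM, S100a6 1145 and 1246 CPM, Ccr2 221 and 198 CPM, and Fn1, fibronectin, 278 and 507 CPM. Of these genes 5 lay above 0 and 7 below.

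Day 5 levels of several of these genes differed between the experiments. The pool's day 5 cells held 34.5 CPM of Saa3, 226 CPM of Chil3, 115 CPM of Ccl8 and 3.00 CPM of Cfb. Set against them, day 7 had log2 ratios of 3.05 for Saa3, 0.97 for Ccl8 and 1.89 for Cfb, turned in direction, and -0.003 for Chil3. Plac8 and Ms4a4c turned too, to 2.42 and 1.20, and the median of the infiltrating monocyte list was 0.13. Between the 2 day 5 samples 1094 of 6837 genes (16.0%) were at least 2-fold apart (729 higher in the pool, 10.7%, and 365 lower, 5.34%), more than between day 5 and day 7 of the CD45+ libraries (3.58%). Sort, chemistry and mice differed between the experiments and cannot be told apart.

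**Figure D3:**
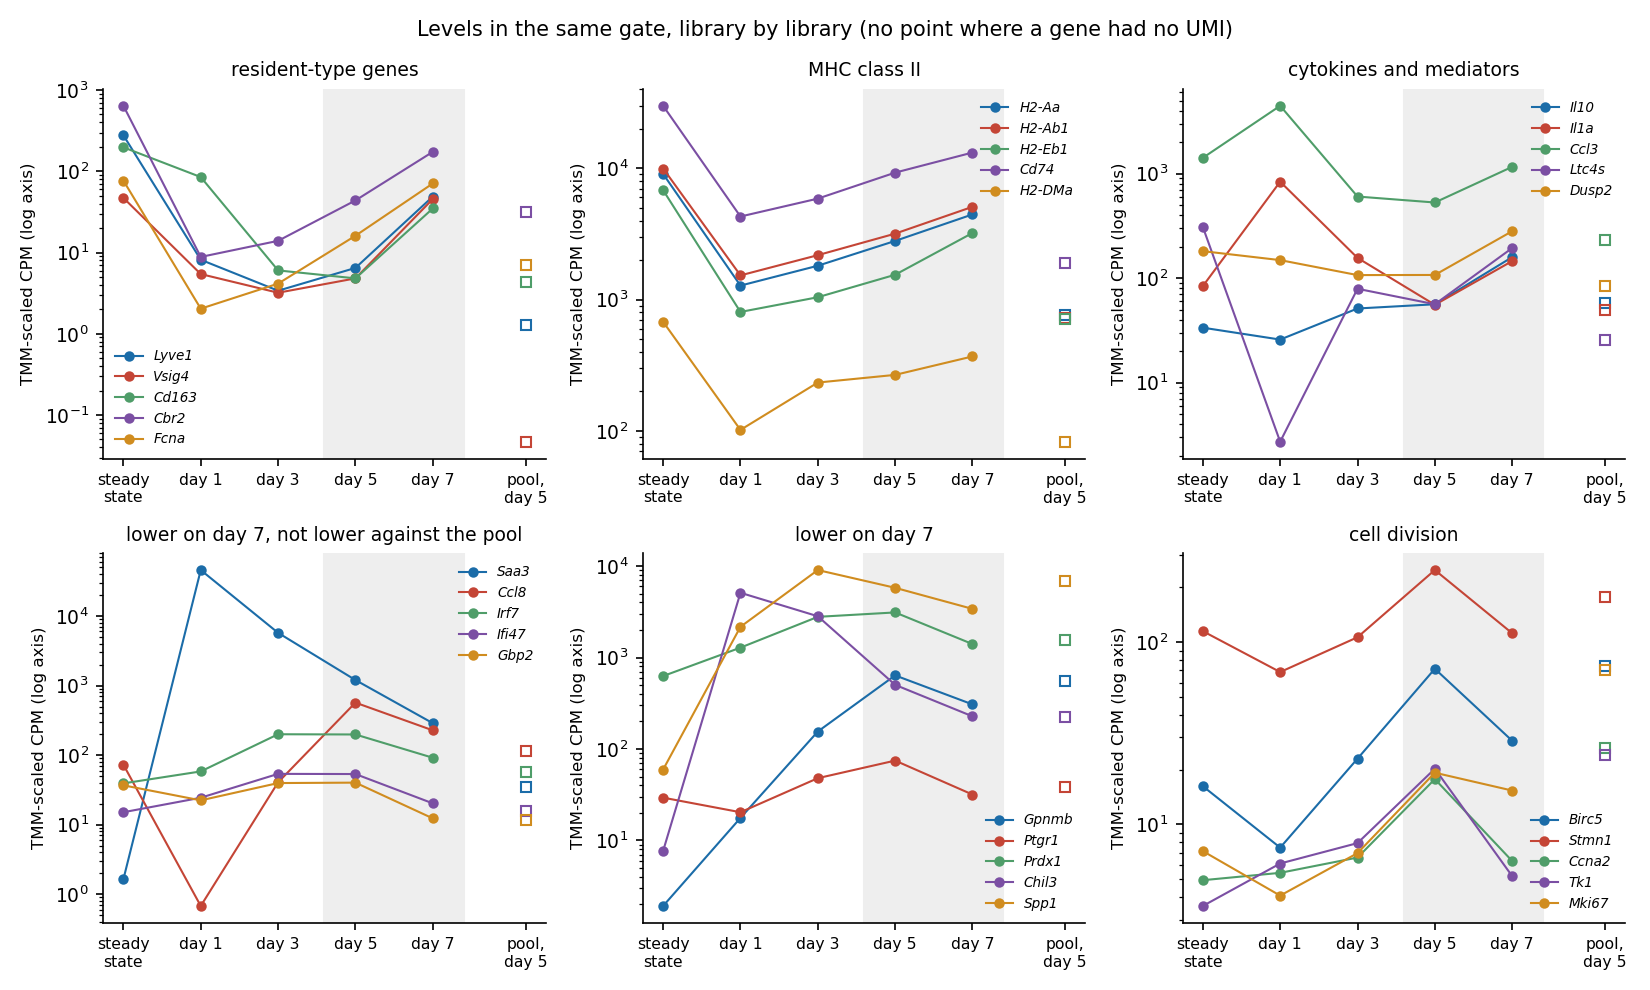
Levels of 30 genes in the same gate in TMM-scaled CPM (log axes), as joined circles for the 5 CD45+ libraries and as open squares for the day 5 cells of the CD11b+ pool; grey marks day 5 and day 7, and a point is missing where a gene had no UMI. The 5 resident-type and 5 class II genes stand highest at steady state, or level with it for Vsig4, and higher on day 7 than on day 5, and the squares show where the second day 5 sample differs from the first.

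Lipid-handling and lysosomal genes differed by less than 2-fold in most cases. Gpnmb, a glycoprotein of lipid-laden macrophages, had 638 and 308 CPM (log2 ratio -1.05, interval -1.15 to -0.96) and left the 2-fold range when members were weighted equally (-0.94), thinned (-0.92) or set against the pool (-0.88). Spp1, osteopontin, had 5790 and 3406 CPM, Lgals3, galectin-3, 4515 and 2861 CPM, and Cd63, a tetraspanin of lysosomes, 1754 and 1057 CPM. Trem2, the lipid-sensing receptor, differed little, at 700 and 714 CPM, and Apoe, the lipid carrier, stood at 25500 and 27880 CPM. Of 14 genes on this list 1 was at least 2-fold lower, 9 lay below 0 and 5 above, with a median of -0.33, and over all genes 3369 of 6308 lay below 0. Of 17 lysosomal genes 1, Ctsk, was at least 2-fold lower and 14 lay below 0, with a median of -0.36: the cathepsins Ctsb and Ctss had 7764 and 4672 CPM and 5868 and 4557 CPM, Ctsc 2187 and 1313 CPM, and Ctsd 3305 and 3208 CPM. With the pool as day 5 the lysosomal median was 0.02.

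Prdx1, a peroxidase that removes hydrogen peroxide, had 3115 and 1405 CPM (log2 ratio -1.15) and was found in over 99% of members on both days, in 99.4% and 99.2%. Ptgr1, a prostaglandin reductase, had 74.8 and 31.8 CPM (log2 ratio -1.23). Hmox1, which breaks down heme, had 1274 and 644 CPM (log2 ratio -0.98), the ferritin chains Ftl1 and Fth1 23650 and 17800 CPM and 21250 and 19900 CPM, and the iron exporter Slc40a1 27.0 and 13.7 CPM. Without members holding a resident marker Hmox1 was at -1.58. Of 9 heme and iron genes 8 lay below 0, and Cd163 was the 1 at least 2-fold higher. Against the pool Prdx1 was at -0.16 and Ptgr1 at -0.31.

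**Figure D4:**
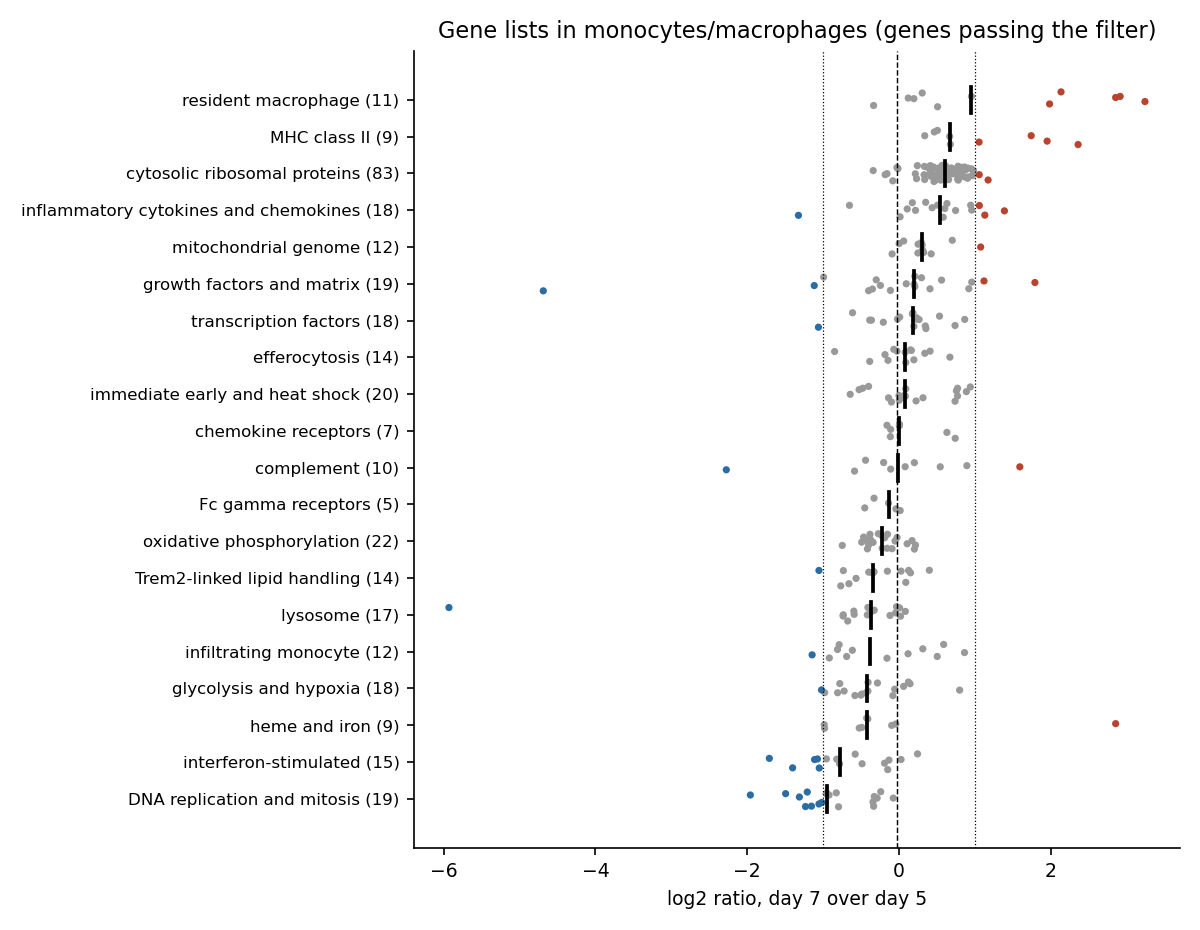
Log2 ratio of day 7 over day 5 (horizontal axis) for every gene of each of the 20 lists that passed the filter (points; their number in brackets), with the list's median as a black bar, the median of all genes as a dashed line and 2-fold as dotted lines. The resident and class II lists lie highest and the interferon and cell division lists lowest; red and blue points are past 2-fold.

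Interferon-stimulated genes were lower on day 7 against the CD45+ day 5 library. Irf7, the factor that amplifies the interferon response, had 198 and 91.8 CPM (log2 ratio -1.11, interval -1.29 to -0.94), the guanylate-binding protein Gbp2 40.3 and 12.3 CPM (log2 ratio -1.71), and the GTPase Ifi47 53.5 and 20.3 CPM (log2 ratio -1.40). Of 15 genes 5 were at least 2-fold lower and 0 higher, against 1.32% and 2.27% of all genes, with a median of -0.78. The other 2 past 2-fold were Usp18 and Ifit2. Isg15 and Bst2, the most abundant of the list, hardly differed, at 248 and 217 CPM and at 398 and 406 CPM, and Cxcl10 had 104 and 124 CPM. Against the pool's day 5 cells the list's median was 0.68 and Irf7, Ifi47 and Gbp2 were at 0.67, 0.37 and 0.05, so the direction turned with the day 5 sample. Without members holding a resident marker the median was -1.35.

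Of 14 interferon genes with a RefSeq promoter entry 7 held GAAA, 2 bases of any kind and GAAA again, the core of the interferon-stimulated response element, on either strand in the 250 bases before the start, against 3.46% of all 27025 genes (matches may overlap). They included both genes with a low ratio (Gbp2, Ifit3) and genes that hardly differed (Isg15, Bst2). Among the genes past 2-fold only Gbp2 held a match: Irf7, Ifi47 and Ifit2 had none in this window, and Usp18 had no entry. The promoters of Gbp2 (chr3:142620413-142620662, plus strand) and Isg15 (chr4:156200819-156201068, minus strand) are shown to set a gene with a large ratio beside one with a small ratio, with matches in capitals.
Gbp2: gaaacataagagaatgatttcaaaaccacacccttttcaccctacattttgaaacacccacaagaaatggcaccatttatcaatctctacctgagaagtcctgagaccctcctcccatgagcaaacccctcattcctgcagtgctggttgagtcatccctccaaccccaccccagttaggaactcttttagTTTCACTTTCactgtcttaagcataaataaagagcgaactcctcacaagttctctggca
Isg15: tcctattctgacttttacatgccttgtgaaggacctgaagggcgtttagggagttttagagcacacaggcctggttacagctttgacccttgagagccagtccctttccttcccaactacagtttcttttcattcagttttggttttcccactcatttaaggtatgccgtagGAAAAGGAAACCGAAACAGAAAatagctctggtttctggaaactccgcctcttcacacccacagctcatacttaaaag
Gbp2 holds 1 match, 59 bases before the start, and Isg15 holds 3 that overlap.

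Of the cell division genes 8 of 19 were at least 2-fold lower on day 7, against 1.32% of all genes. Birc5, the mitotic survival protein survivin, had 71.4 and 28.8 CPM (log2 ratio -1.31), and Stmn1, stathmin, which regulates microtubules, 249 and 112 CPM (log2 ratio -1.15). Tk1, thymidine kinase, had 20.2 and 5.21 CPM (log2 ratio -1.96, interval -2.74 to -1.25) and Ccna2, cyclin A, 17.7 and 6.31 CPM (log2 ratio -1.49). None of the list was 2-fold higher, and the point values of all 19 lay below 0, with a median of -0.95. Among the abundant genes of the list, Tubb5, a tubulin, had 377 and 297.5 CPM and Hmgb2, a chromatin protein, 236 and 224 CPM. Mki67, the usual division marker, had only 116 and 56 UMIs, and its interval spanned 0 (-0.81 to 0.15). With members thinned to 2000 UMIs Birc5 was at -0.79 and Stmn1 at -0.87, and with Cd79a at 0 Birc5 was at -0.91 and Ccna2 at -0.82. For the 8 genes past 2-fold the day 7 member with the most held between 9.56% and 20.5% of the day's UMIs. The median was -1.22 without the day 7 cell rich in Ngp, -0.51 with every member weighted equally (Tk1, -1.13), -0.45 without members holding a resident marker and -1.02 against the pool.

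For this list a promoter is shown because all 19 genes lay below 0. The letters TTTNGCGC, part of the E2F motif of cell cycle genes, were found on either strand in 3 of 17 promoters (Cdk1, Mcm5 and Mcm6) and in 1.31% of all genes. The promoter of Mcm6, a subunit of the replication helicase (chr1:128359706-128359955, minus strand), holds 3 matches, of which 2 overlap.
Mcm6: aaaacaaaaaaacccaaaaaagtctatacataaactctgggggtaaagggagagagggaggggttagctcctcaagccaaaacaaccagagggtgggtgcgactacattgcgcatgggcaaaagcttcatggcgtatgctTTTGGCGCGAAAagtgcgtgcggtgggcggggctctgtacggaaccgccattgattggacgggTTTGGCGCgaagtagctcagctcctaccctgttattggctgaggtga
Mcm6 had 40.4 CPM on day 5 and 23.3 CPM on day 7 (log2 ratio -0.80).

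Cytosolic ribosomal protein genes stood higher on day 7, and the other housekeeping groups differed less. Of 83 cytosolic ribosomal protein genes 77 lay above 0, 2 at least 2-fold (Rps12, 628 and 1418 CPM, and Rps21, 613 and 1277 CPM), with a median of 0.61, while the most abundant, Rpl41, had 5474 and 6362 CPM and Rps29 4229 and 7247 CPM. Rps12 has near-identical pseudogene copies, among which reads could be split. Against the pool Rps12 was at -0.63 and Rps21 at -0.35, while Rpl41 was at 0.79 and Rps29 at 1.26. The list's median lay between 0.54 and 0.67 under all 14 alternatives that kept these genes, the pool among them. B cells and T cells of day 7 held 2361 and 2633 CPM of Rps12. Of 18 glycolytic and hypoxia genes 14 lay below 0, with a median of -0.42: Pkm, pyruvate kinase, had 1096 and 665 CPM, Ldha, lactate dehydrogenase, 713 and 508 CPM, Pgk1 52.4 and 26.6 CPM, and Ero1l, an oxidase of protein folding and the 1 gene past 2-fold, 39.4 and 19.5 CPM, while Gapdh stood at 962 and 1066 CPM. Oxidative phosphorylation genes had a median of -0.22 with 0 of 22 past 2-fold: the cytochrome oxidase subunits Cox4i1 and Cox8a had 1263 and 1220 CPM and 734 and 792 CPM, cytochrome c (Cycs) 409 and 244 CPM and Ndufb8, of complex I, 404 and 288 CPM. Mitochondrially encoded genes had a median of 0.30 with 1 of 12 past 2-fold (mt-Nd3, 146 and 308 CPM). Against the pool mt-Nd3 was at -1.61, and the medians turned to -0.75 for these genes and 0.39 for the oxidative phosphorylation list. Of the others mt-Atp6 had 4464 and 4665 CPM, mt-Co3 3601 and 4454 CPM and mt-Nd2 371 and 605 CPM.

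Few genes of the other lists differed by 2-fold. Against the pool several of their medians turned in direction: efferocytosis to -0.50, Fc gamma receptors to 0.67, transcription factors to -0.20, complement to 0.64 and growth factors to -0.34. Efferocytosis genes, which serve the uptake of dead cells, had a median of 0.09 and 0 of 14 past 2-fold: the receptors Mertk and Axl had 24.5 and 32.6 CPM and 41.1 and 65.5 CPM, the scavenger receptor Stab1 206.5 and 187 CPM, the integrin Itgb5 175 and 185 CPM and Cd300lf, a receptor for lipids of dying cells, 58.2 and 32.4 CPM. Fc gamma receptors had a median of -0.14 (Fcgr1, 306 and 244 CPM; Fcgr3, 580.5 and 588 CPM; Fcgr4, 152 and 111 CPM; their signalling chain Fcer1g, 4062 and 3697 CPM). Chemokine receptors had a median of 0.01, with the decoy receptor Ccrl2 at 415 and 694 CPM and Cx3cr1 at 106 and 164.5 CPM. Among 18 transcription factors 1, Tfec, was 2-fold lower (16.6 and 7.95 CPM), while Spi1, which drives myeloid identity, had 434 and 437 CPM. Cebpb had 2856 and 2479 CPM, Id2 405 and 739 CPM and Nr4a1 185 and 308.5 CPM. The complement list had a median of -0.01: C1qa, C1qb and C1qc had 2722 and 3972, 3889 and 4482, and 2635 and 2790 CPM, and C4b had 14.2 and 43.0 CPM (log2 ratio 1.59, and 0.52 without members holding a resident marker). Of 20 immediate early and heat shock genes, which respond to tissue handling, 0 were past 2-fold, with Fos at 1110 CPM on both days Junb at 2022 and 2146 CPM, Hspa8 at 2577 and 2345 CPM, Egr1 at 60.8 and 113 CPM and Ier3 at 511 and 981 CPM.

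Counted per cell, after thinning every member to 2000 UMIs, the share with at least 1 UMI of Lyve1, Folr2 or Timd4 was 11.3% on day 5 (70 of 620, exact interval 8.91% to 14.0%) and 20.1% on day 7 (72 of 359, 16.0% to 24.6%), and the intervals do not overlap. Among the 157 day 7 members without Cd79a it was 16.6%. In day 7 T cells, with a median of 3837 UMIs before thinning, it was 5.36% (1.12% to 14.9%), and in B cells, with 2717, it was 4.17%. Unthinned the member shares were 31.3% and 45.1%. Few of the day 5 members counted here held Lyve1, as given above, so the set rested mostly on Folr2 or Timd4 on that day. At least 2 UMIs of Trem2 and Gpnmb together were held by 48.2% (44.2% to 52.2%) and 37.0% (32.0% to 42.3%) of members and by 1.79% of T cells, but unthinned by 75% and 76.0%, so that order was seen only at equal depth. The share with at least 20 UMIs of the 4 class II genes was 32.9% (29.2% to 36.8%) and 41.2% (36.1% to 46.5%), against 3.57% of day 7 T cells. The intervals of the 2 days overlap slightly. Unthinned the member shares were 46.9% and 90.3%, against 21.4% of day 7 T cells. Those T cells had a median of 3837 UMIs against 9713 in day 7 members, so the unthinned shares are not at equal depth.

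At least 1 UMI of 5 division genes was held by 11.3% of members on day 5 (8.91% to 14.0%) and 6.13% on day 7 (3.88% to 9.13%), and the intervals overlap slightly. Among the 157 day 7 members without Cd79a the share was 9.55%. T cells of day 7 were at 5.36%, B cells at 3.82% and the 9 T cells of day 5 at 11.1% (1 cell). The day 7 T cell interval, 1.12% to 14.9%, holds the member shares of both days. The share with Ly6c2 or Plac8 was 37.1% and 32.3%, with 42.9% of T cells and 49.7% of B cells on day 7. T cells held 612 CPM of Ly6c2 against 41.3 CPM in B cells, and B cells 648 CPM of Plac8 against 158 CPM in T cells, so these genes do not mark monocytes alone in these libraries. Dendritic cell markers Cd209a, Flt3 or Xcr1 were held by 2.10% (1.12% to 3.56%) and 6.13% (3.88% to 9.13%) of members, by 1.74% of B cells and by 0 of 56 T cells, which allows a share of up to 6.38% (exact interval), and by 2.55% of the 157 day 7 members without Cd79a. The sets overlapped differently. Of members with a resident marker 50 of 70 (71.4%) on day 5 and 18 of 72 (25.0%) on day 7 also held at least 2 UMIs in the sum of Trem2 and Gpnmb. Over all members that share was 48.2% on day 5 and 37.0% on day 7. The difference between the days was not tested.

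**Figure D5:**
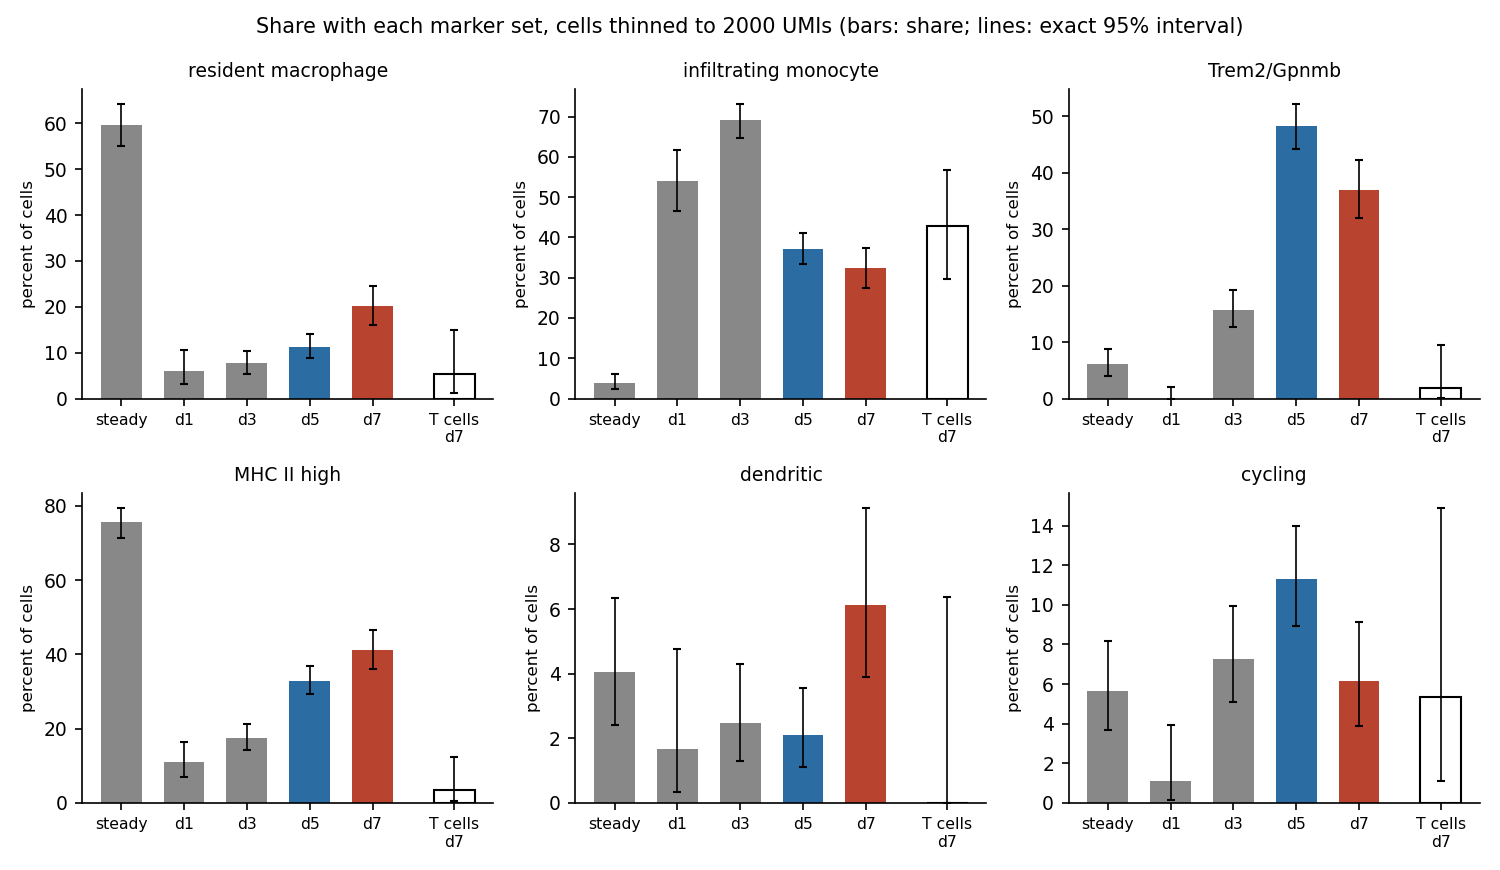
Percent of members with each marker set after thinning every cell to 2000 UMIs, for steady state and days 1 to 7 (bars; lines are exact 95% intervals for counting error), with the T cells of the day 7 library as open bars for background. The resident share stands at 11.3% on day 5 and 20.1% on day 7, and the infiltrating monocyte share of day 7 T cells is 42.9%, above the 37.1% and 32.3% of members on day 5 and day 7 and below those on day 1 and day 3.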

How the data were processed

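The values are UMI counts per gene and cell barcode, deposited by the authors as 1 filtered matrix for each library. Per the submitters' processing notes they were made with Cell Ranger on mm10 (GRCm38), and the version is not given in the sources used here. Strand handling and doublet removal by the authors are not given there either. The column of each library was taken from its labels, and 0 columns were left unmapped.

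UMIs of members were summed per library, since cells of 1 library are not replicates, and scaled by TMM factors (1.025 for day 5 and 0.9756 for day 7, equal to those of edgeR 4.0.16 in R 4.3.3). Genes with a mean of at least 10 CPM over the 2 sums were compared. A gene counted as called at 2-fold or more, and no p-value was computed. Intervals are exact 95% Clopper-Pearson intervals of the UMI split or share, and cover counting error only. Shares were computed after thinning each cell to 2000 UMIs, and no member of day 5 or day 7 was too shallow. The calculation was tested on simulated data made from these libraries. Python 3.11.15, numpy 2.4.6, SciPy 1.17.1 and pandas 2.3.3 were used. Scrublet in scanpy 1.11.5 marked 3 of 948 barcodes (0.316%) on day 5 and 2 of 1795 (0.111%) on day 7, so it did not work as a doublet caller here. Doublets were not removed, and an alternative left out the barcodes it marked. Cells of the CD11b+ pool were assigned to day 5 by Hashtag 3 alone.

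The members and gene lists were chosen with earlier results of these data known. The genes named are the 12 on each side whose interval bound nearest to 0 was largest, among those at least 2-fold apart, with a mean of at least 50 CPM and at least 20% of the level of the highest other cell class of that library. Mitochondrial, ribosomal, haemoglobin, immunoglobulin and gate genes were left out of that rule. Each list also gave the genes with the largest means and the largest ratios. Other list genes in the text were chosen after their values were seen. Alternatives changed the scaling, weighting, depth, gate, quality limits, filter, call rule and day 5 sample, and left out members with dendritic or resident markers. Leaving out the Ctsk-rich members and the Ngp-rich member was chosen after seeing the data. Some genes of the lists are not reported here.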

Additional observations from a re-analysis of the deposited data

How the results depend on the processing

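Against 143 genes at least 2-fold higher and 83 lower on day 7, the counts were 278 and 255 with members thinned to 2000 UMIs, 419 and 619 with day 5 from the CD11b+ pool, 2287 and 1733 with no filter on low values, 28 and 17 with a filter of 50 CPM, and 81 and 20 where the interval had to lie wholly past 2-fold. The lower count was 153 with Cd79a at 0 and 139 without members holding resident markers. Fewer or more genes tested accounts by construction for the 2 filter settings and a stricter rule for the interval setting; for the others the cause was not tested. The 24 named genes remained 2-fold apart under total-UMI scaling, median-of-ratios scaling and scaling without ribosomal and mitochondrial genes. With the pool as day 5 the log2 ratios of genes past 2-fold turned for Saa3 (3.05), Ccl8 (0.97), Irf7 (0.67), Ifi47 (0.37), Gbp2 (0.0504), Cfb (1.89), Rps21 (-0.35), Rps12 (-0.63) and mt-Nd3 (-1.61), and 19 of 22 named genes measured there kept their direction, 13 at 2-fold or more.

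Shares of members followed the depth. On day 5, thinning to 1000 UMIs and no thinning gave 7.10% and 31.3% for the resident set, 32.4% and 58.1% for infiltrating monocytes, 28.9% and 75% for Trem2/Gpnmb, 26.1% and 46.9% for MHC II and 7.42% and 27.6% for division, and no thinning gave 5.97% for dendritic markers. On day 7 they were 15.6% and 45.1%, 22.6% and 66.6%, 21.2% and 76.0%, and 33.15% and 90.25% for the first 4 sets, and no thinning gave 13.1% for dendritic markers and 20.6% for division. On day 7 the Trem2/Gpnmb share was 44.2% with a gate of at least 4 UMIs and 29.3% with Cd79a at 0, where the dendritic and division shares were 2.55% and 9.55%; the cause was not tested. Of 1766 single-gene and list values under the alternatives 101 changed sign, 44 of them with the pool as day 5; 9 of the 101 were values past 2-fold, those given above. No paired analysis was possible because each day has 1 library. With 1 library of pooled mice a day, counting error alone is known.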

Other observations

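Jchain, which joins the chains of secreted antibodies, had 1 UMI in day 5 members and 331 UMIs in 210 of 359 day 7 members, with at most 5 in any of them. In the day 7 library B cells held 112 CPM and T cells 107 CPM of it, and the members' level was 90.75 CPM. Mzb1, a chaperone of antibody-making cells, had 5 and 130 UMIs, the latter in 96 members, with 386 CPM in B cells and 4.28 CPM in T cells. Xbp1 and Sdc1, also genes of such cells, did not share this rise. Xbp1 had 676 UMIs in 349 day 5 members and 400 in 201 day 7 members. Sdc1 had 158 UMIs in 53 day 5 members and 45 in 26 day 7 members. These UMI counts are not scaled for the unequal totals of the days.

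A single day 7 member held 176 of 187 UMIs of the collagen gene Col1a1 (94.1%) and 74.8% of those of the matrix protein decorin (Dcn), and summed fibroblast markers stood at 18.6 CPM on day 5 and 243 CPM on day 7. A single day 7 member held 93.8% of the UMIs of the haemoglobin gene Hba-a1 and 86.8% of those of Hbb-bs.

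Ccr7, the receptor that guides dendritic cells to lymph nodes, had 28.7 CPM on day 5 and 103 CPM on day 7 (log2 ratio 1.84, interval 1.58 to 2.11). Mef2c, a transcription factor, had 65.5 and 135 CPM (log2 ratio 1.04), and Ccl5, a chemokine also made by T and NK cells, 56.8 and 116.5 CPM (log2 ratio 1.03). In the day 7 library B cells held 668 CPM of Ccr7 and 853.5 CPM of Mef2c, and T cells held 257 and 21.4 CPM. Ccl5 stood at 2949 CPM in those T cells and at 86.0 CPM in those B cells. Whether B cell or T cell transcripts contributed to the members' day 7 levels of these genes was not tested. Ccr7, Mef2c and Ccl5 fell outside the rule for named genes and were chosen after their values were seen.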
